A study of Caenorhabditis elegans with 10 samples.

Results

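The dosage compensation complex of Caenorhabditis elegans is the subject here, through the mRNA of the 10 genes that encode its subunits: sdc-1, sdc-2, sdc-3, dpy-21, dpy-26, dpy-27, dpy-28, dpy-30, mix-1 and capg-1. They were taken by name from 46772 genes with a count row, of which 12335 held enough counts to be tested, all 10 among them. The list is a named complex, but sdc-3 was selected on its measured counts, with its difference between the strains already known, and the rest of the complex was listed beside it. The strain differences of these genes are therefore given as a description. Whole worms of 2 strains were compared, 5 libraries of the strain F01D4.5(baf20), named after the gene F01D4.5, and 5 of N2, the laboratory wild type. What the baf20 change does to F01D4.5 is not given in the labels. Every sample was 1000 to 2000 worms grown from L1 arrest for 48 hours at 20 °C on plates with the bacterium OP50, so that tissues and germ cells are mixed, and fewer cells of a type and less RNA per cell cannot be told apart.

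In this species hermaphrodites have a pair of X chromosomes and males a single X. The complex binds both X chromosomes of hermaphrodites and lowers their transcription, so that X expression matches that of males. Its core is a condensin, a ring-shaped chromosome-folding machine, called condensin I DC, which shares all subunits but DPY-27 with the condensin I that acts in cell division. Recruitment proteins, foremost SDC-2, load it onto X, and the same proteins hold the male-promoting gene her-1 off.

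The libraries held 9059910 to 11056979 counts each, and 3 counts, the limit that a count of 0 allows, correspond to 0.269 to 0.339 CPM (counts per 1000000 counts of the tested genes, after scaling between libraries). This limit covers counting error only. F01D4.5 itself had 3.23 ± 0.738 CPM in F01D4.5(baf20) worms and 10.8 ± 2.93 CPM in N2 worms (SD, n = 5 each), with 2.15 to 4.03 CPM in single F01D4.5(baf20) libraries and 6.44 to 14.3 CPM in single N2 libraries. The libraries numbered 5 of both strains stood apart from the other 8, with more mRNA of moulting and cuticle genes and less of oocyte genes. Values without them are given for the complex genes, the X measure and the number of genes called. The other gene lists were not fitted without them. F01D4.5(baf20) replicates 1 and 2 were closer to each other than any other replicates of a strain, but at 2.2 their chi-square over its degrees of freedom exceeded sampling noise, and they were kept as 2 samples. In the test across all genes (edgeR, quasi-likelihood, p adjusted by Benjamini-Hochberg, threshold 0.05), 0 of the 10 complex genes passed, where 8 of 12335 genes (0.0649%) did. At an unadjusted p under 0.05 were 2 of them, sdc-3 and dpy-30, beside 5.75% of all genes, and DESeq2 called 1, sdc-3, beside 0.214%. Nothing is read from these shares, since the strain difference had a part in the choice of the genes.

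Among the recruitment genes, sdc-3 stood higher in F01D4.5(baf20) worms in every library. SDC-3 is a zinc finger protein that helps to bring the complex to X and to repress her-1. Its mRNA had 64.5, 64.4, 63.9, 54.7 and 58.7 CPM in F01D4.5(baf20) replicates 1 to 5, against 41.3, 32.2, 43.4, 39.6 and 35.3 CPM in N2 replicates 1 to 5. The lowest F01D4.5(baf20) library thus lay above the highest N2 library, and the libraries numbered 5 were inside the range of the others. The means were 61.2 ± 4.39 CPM in F01D4.5(baf20) and 38.4 ± 4.54 CPM in N2 (SD, n = 5 each). The fitted difference was 1.595-fold, a log2 fold change of 0.67 (SE 0.109). Such a lack of overlap, in either direction, was found in 2 of the 10 genes, sdc-3 and dpy-30, and in 1.43% of all genes tested. Nothing is read from this count, since sdc-3 was chosen for its difference and dpy-30 passed the filter through N2 alone. With any 1 library left out the log2 fold change of sdc-3 lay between 0.62 and 0.72, and without both libraries numbered 5 it was 0.66. The adjusted p by edgeR was 0.0688, outside the threshold, and 9.29e-05 by DESeq2. DESeq2 was the only alternative under the threshold. The edgeR alternatives gave adjusted p of 0.0569 to 0.323, the highest with F01D4.5(baf20) replicates 1 and 2 summed. These values are printed only to place the gene, which was singled out for this difference.

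sdc-3 (C25D7.3) spans chromosome V 15039148 to 15048207, minus strand, in WBcel235. It is counted in a single row, and no other gene of the classes searched overlaps it, so its level is not split among transcripts or shared with an antisense gene. None of its tested neighbours passed the test in edgeR. The pseudogene C25D7.2, 313 bases away on the same strand, had 1.80 ± 0.195 CPM in F01D4.5(baf20) and 1.499 ± 0.205 CPM in N2, a log2 fold change of 0.26 (SE 0.189, adjusted p = 0.926 by edgeR). melo-3, the next gene on that side, had 15.2 ± 3.13 CPM in F01D4.5(baf20) and 15.6 ± 2.16 CPM in N2, a log2 fold change of −0.036 (SE 0.168, adjusted p = 0.980 by edgeR). On the other side fbxa-82 had 0 counts in all libraries, and C25D7.5 had 24.8 ± 15.8 CPM in F01D4.5(baf20) and 22.7 ± 10.6 CPM in N2.

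sdc-2 and sdc-1, the partners of sdc-3 in recruitment, overlapped between the strains. SDC-2 is the large protein present in hermaphrodites that starts assembly on X. Its mRNA had 19.4, 23.6, 22.9, 16.98 and 38.3 CPM in F01D4.5(baf20) replicates 1 to 5, against 23.2, 25.2, 26.02, 22.6 and 29.7 CPM in N2 replicates 1 to 5. In each strain the library numbered 5 was the highest. The means were 24.2 ± 8.33 CPM in F01D4.5(baf20) and 25.4 ± 2.79 CPM in N2, with a log2 fold change of −0.068 (SE 0.206). That value rested on single libraries: it was −0.295 without F01D4.5(baf20) replicate 5, −0.005 without N2 replicate 5, 0.017 without F01D4.5(baf20) replicate 4 and −0.233 without both libraries numbered 5. sdc-1, which encodes another zinc finger protein of the complex, had 25.2, 25.95, 33.4, 27.1 and 23.4 CPM in F01D4.5(baf20) replicates, against 27.3, 23.1, 28.9, 22.3 and 17.2 CPM in N2 replicates. Here the library numbered 5 was the lowest in each strain, and the log2 fold change was 0.19 (SE 0.159). It was 0.089 without N2 replicate 5, 0.097 without F01D4.5(baf20) replicate 3 and 0.134 without both libraries numbered 5. Both genes lie on the plus strand of X, sdc-2 at 11522707 to 11533450 and sdc-1 at 16275763 to 16282534. The antisense RNA gene anr-16 overlaps sdc-2 but held 1.49 CPM in F01D4.5(baf20) and 1.39 CPM in N2. Whether the counting used strand was not stated.

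dpy-30 was the other gene whose strains did not overlap, at a level too low for a firm statement. DPY-30 is a small protein that the complex shares with the COMPASS histone methyltransferases. The gene held 7, 8, 5, 9 and 1 counts in F01D4.5(baf20) replicates 1 to 5, against 17, 18, 13, 12 and 11 counts in N2 replicates 1 to 5. The counts in F01D4.5(baf20) replicate 5 were below the limit that a count of 0 allows. In CPM the means were 0.589 ± 0.293 in F01D4.5(baf20) and 1.41 ± 0.314 in N2, a log2 fold change of −1.22 (SE 0.370), or 2.33-fold lower. Over all alternatives that kept the gene the log2 fold change lay between −1.38 and −0.98. It passed the filter on low counts through the N2 libraries alone, so a difference had to follow. The gene is counted in 3 rows, of which ZK863.6.3 held all but 1 of its counts, and reads shared by its transcripts appear to be largely missing. It lies on the plus strand of chromosome V at 12191519 to 12192385 and overlaps rnp-1 on the same strand, which had 20.5 CPM in F01D4.5(baf20) and 24.2 CPM in N2 with an adjusted p of 0.926 by edgeR (log2 fold change −0.24, SE 0.221). The part of row structure and overlap in the dpy-30 values was not tested.

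**Figure D1:**
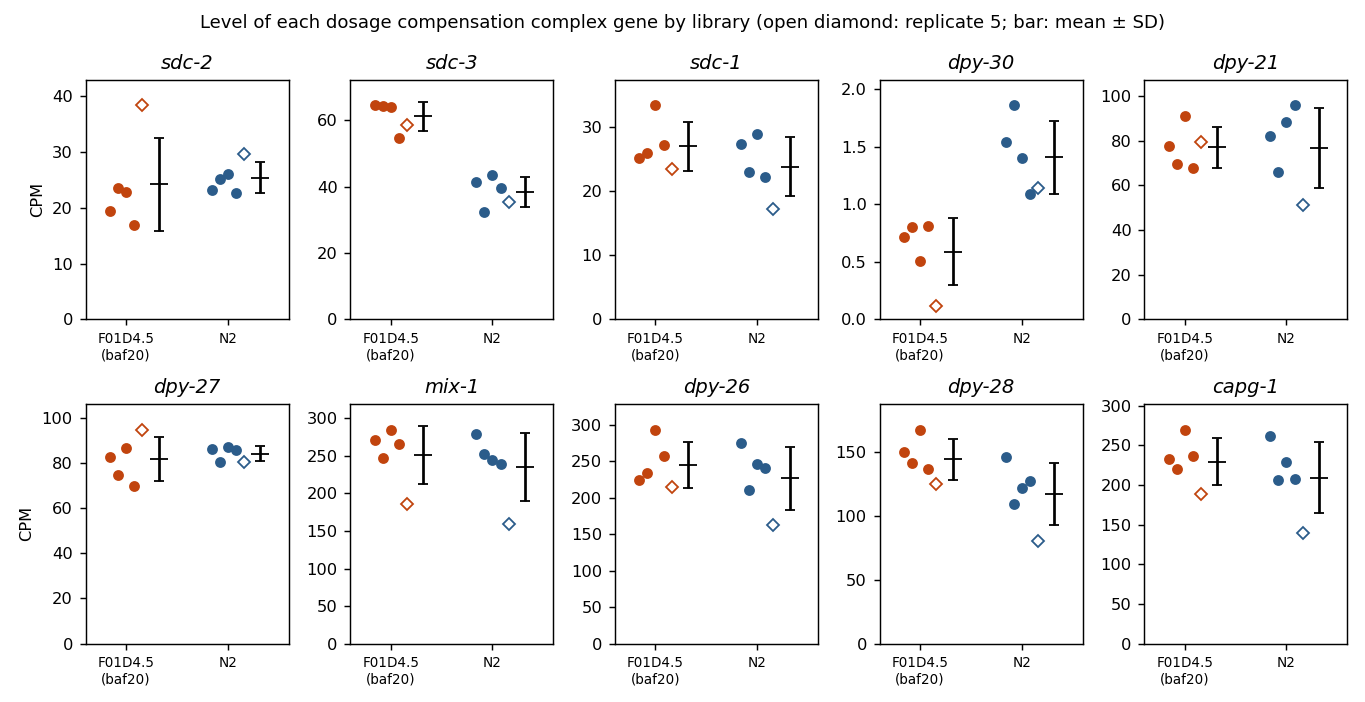
Level of each dosage compensation complex gene in CPM (vertical axes, each from 0) in the 5 F01D4.5(baf20) libraries (red, left) and the 5 N2 libraries (blue, right), with open diamonds for replicate 5 and black bars for mean ± SD. The strains do not overlap in sdc-3, at 54.7 to 64.5 CPM in F01D4.5(baf20) against 32.2 to 43.4 CPM in N2, or in dpy-30, which rests on 1 to 18 counts per library; in the other 8 genes they overlap.

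None of the 5 condensin subunit genes separated the strains. DPY-27 is the SMC-family ATPase found in the X-bound condensin alone, and its mRNA was the steadiest of the 10 across libraries. dpy-27 had 82.4, 74.6, 86.6, 69.8 and 94.6 CPM in F01D4.5(baf20) replicates 1 to 5, against 86.3, 80.5, 87.1, 85.6 and 80.3 CPM in N2 replicates 1 to 5, and the N2 values lay inside the range of F01D4.5(baf20). The fitted log2 fold change of dpy-27 came to −0.041 (SE 0.097). MIX-1, the SMC-family partner of DPY-27 and of SMC-4 in the mitotic condensins, had mRNA means of 250.8 ± 38.99 CPM in F01D4.5(baf20) and 234.8 ± 44.9 CPM in N2 (SD, n = 5 each). The kleisin gene dpy-26, whose product closes the ring, had 244.9 ± 31.6 CPM in F01D4.5(baf20) and 227.2 ± 43.1 CPM in N2. The log2 fold changes were 0.095 (SE 0.161) for mix-1 and 0.11 (SE 0.146) for dpy-26. Without both libraries numbered 5 they were 0.073 for mix-1, 0.050 for dpy-26 and −0.118 for dpy-27. Without N2 replicate 5 alone they were −0.017 for mix-1 and 0.008 for dpy-26, and without F01D4.5(baf20) replicate 5 alone 0.185 for mix-1 and −0.101 for dpy-27.

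The HEAT-repeat subunit genes dpy-28 and capg-1 had positive values as well. dpy-28 had 150.1, 141.3, 167.3, 136.9 and 125 CPM in F01D4.5(baf20) replicates 1 to 5, against 145.9, 109.5, 122, 126.9 and 80.4 CPM in N2 replicates 1 to 5. The 2 groups overlapped, with a log2 fold change of 0.30 (SE 0.150, adjusted p = 0.876 by edgeR). capg-1 had 229.6 ± 29.3 CPM in F01D4.5(baf20) and 209.1 ± 44.7 CPM in N2, with a log2 fold change of 0.14 (SE 0.158). Without N2 replicate 5 the values were 0.021 for capg-1 and 0.192 for dpy-28, and without both libraries numbered 5 they were 0.082 for capg-1 and 0.237 for dpy-28. Leaving out any 1 library gave 0.021 to 0.231 for capg-1, 0.192 to 0.394 for dpy-28, 0.008 to 0.188 for dpy-26, −0.017 to 0.185 for mix-1 and −0.101 to −0.011 for dpy-27. Over all alternatives, by edgeR or DESeq2, the lowest adjusted p of these 5 genes was 0.299, for dpy-28. Their coordinates in WBcel235 are chromosome III 3813018 to 3819679, minus strand, for dpy-27, chromosome II 10824246 to 10841424, plus strand, for mix-1, chromosome IV 12445801 to 12451335, minus strand, for dpy-26, chromosome III 10763131 to 10777076, plus strand, for dpy-28 and chromosome I 7634492 to 7639785, minus strand, for capg-1. All 5 are counted in a single row. mix-1 overlaps VM106R.1 and M106.8 on the opposite strand, at 16.6 and 26.5 CPM in F01D4.5(baf20) and 19.6 and 28.3 CPM in N2, and dpy-26 overlaps C25G4.3 on its own strand, at 7.07 CPM in F01D4.5(baf20) and 9.22 CPM in N2.

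dpy-21, the gene of the histone demethylase that changes histone H4 methylation on X, had nearly equal means, 76.9 ± 9.27 CPM in F01D4.5(baf20) and 76.7 ± 18.0 CPM in N2 (SD, n = 5 each). It had 77.4, 69.5, 90.9, 67.6 and 79.2 CPM in F01D4.5(baf20) replicates 1 to 5, against 82.2, 66.0, 88.3, 95.7 and 51.1 CPM in N2 replicates 1 to 5. The N2 libraries spread more widely, with N2 replicate 5 the lowest of all 10. The log2 fold change was 0.005 (SE 0.166), and its sign turned in 12 of 19 alternatives, with values from −0.12 (without both libraries numbered 5) to 0.097 (without N2 replicate 4). Its coordinates are chromosome V 17936282 to 17949193, minus strand. Of its 2 rows, Y59A8B.1b had 0 counts in every library, and reads common to both transcripts may be missing from its level.

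**Figure D2:**
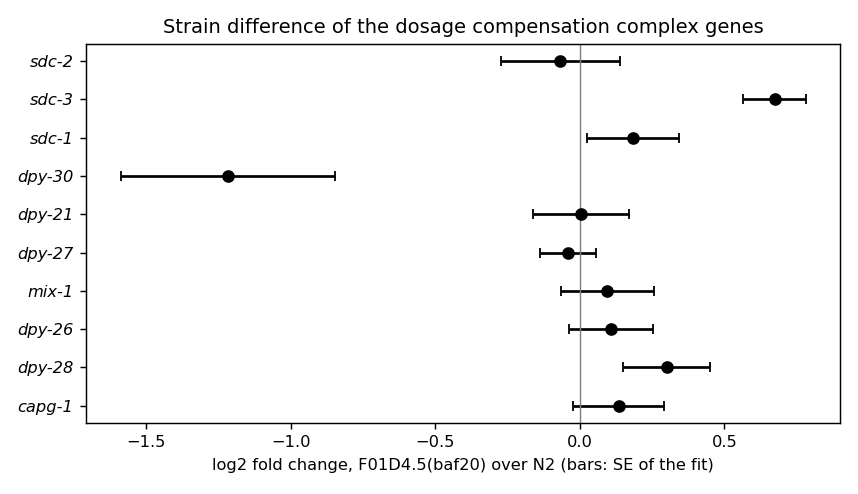
Log2 fold change of each gene, F01D4.5(baf20) over N2 (horizontal axis), with points for the fitted value and bars for its SE. sdc-3 lies at 0.67 and dpy-30 at −1.22, while the other 8 lie between −0.068 and 0.30.

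Set against its partners within each library, sdc-3 shifted by more than the spread between libraries. The log2 CPM of sdc-3 minus the mean log2 CPM of the other 9 genes was 0.19, 0.19, 0.018, −0.015 and 0.23 in F01D4.5(baf20) replicates 1 to 5, against −0.67, −0.85, −0.54, −0.56 and −0.36 in N2 replicates 1 to 5. The groups did not overlap on this log2 scale, with means of 0.12 ± 0.11 in F01D4.5(baf20) and −0.59 ± 0.18 in N2 (SD, n = 5 each), a difference of 0.72. Part of it came from dpy-30, a partner with few counts that passed the filter through N2 alone and was thus bound to widen the gap. With dpy-30 left out the difference was 0.58. The values per library, and their lack of overlap, are given with dpy-30 included only. Against the condensin subunits alone it was 0.55, and against sdc-1, sdc-2 and dpy-30 it was 1.03. Against sdc-1 and sdc-2 without dpy-30 it was 0.64.

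Against single partners in log2 CPM, the strains did not overlap for 3 of 9, dpy-21, dpy-27 and dpy-30, and overlapped for the others. Nothing is read from this count. sdc-3 itself separated the strains, so any partner steady across libraries was bound to do the same, and dpy-30 passed the filter through N2 alone. The share of all tested genes that would separate the strains as a partner was not computed. The same sdc-3 counts, for which the gene was chosen, also enter the ratios of raw counts below, which need no scaling between libraries. Per dpy-27 count there were 0.783, 0.864, 0.738, 0.784 and 0.620 sdc-3 counts in F01D4.5(baf20) replicates 1 to 5, against 0.479, 0.401, 0.498, 0.463 and 0.440 in N2 replicates 1 to 5, with no overlap. Per sdc-2 count there were 1.53 to 3.33 sdc-3 counts in F01D4.5(baf20) and 1.19 to 1.78 in N2, and per sdc-1 count 1.92 to 2.56 in F01D4.5(baf20) and 1.40 to 2.05 in N2, and both of these overlapped. In N2 replicate 5 sdc-1 was low, and in F01D4.5(baf20) replicate 5 sdc-2 was high, which sets the ends of these ranges. As a share of all counts of the complex genes, sdc-3 made up 4.83% to 5.85% in F01D4.5(baf20) and 3.20% to 4.67% in N2. The summed level of the other 9 genes was 949.5 to 1249 CPM in F01D4.5(baf20) and 721.4 to 1183 CPM in N2, and overlapped.

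**Figure D3:**
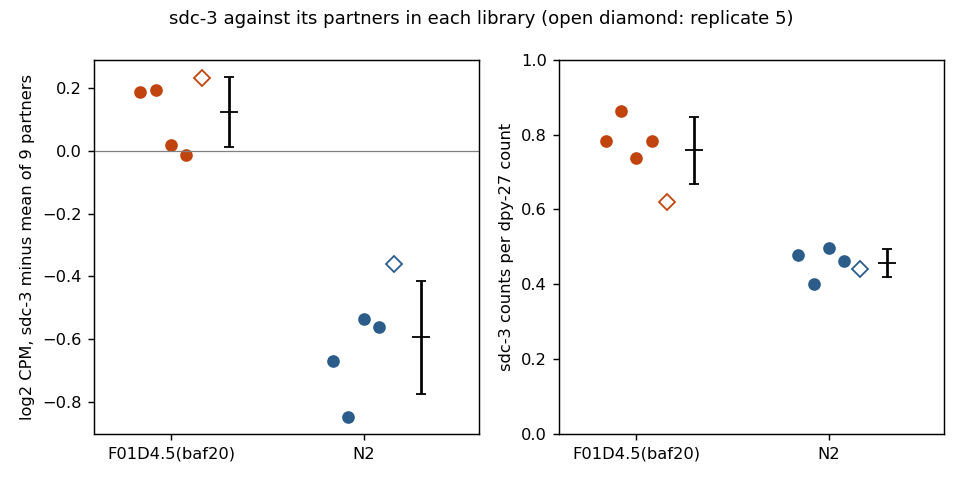
Left, log2 CPM of sdc-3 minus the mean of the other 9 complex genes; right, raw sdc-3 counts per dpy-27 count (axis from 0), for the 5 F01D4.5(baf20) libraries (red) and the 5 N2 libraries (blue), with open diamonds for replicate 5 and bars for mean ± SD. On the left F01D4.5(baf20) lies at −0.015 to 0.23 and N2 at −0.85 to −0.36, with dpy-30, which passed the filter through N2 alone, among the 9. On the right F01D4.5(baf20) lies at 0.620 to 0.864 and N2 at 0.401 to 0.498. Against single partners in log2 CPM the strains separate for dpy-21, dpy-27 and dpy-30 and overlap for the others. sdc-3 itself was chosen for its strain difference.

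Divided by exon length, the subunits shared with the mitotic condensin were highest and the recruitment genes lowest. In CPM per kilobase of exon, mix-1 averaged 61.5 ± 9.57 in F01D4.5(baf20) and 57.6 ± 11.02 in N2, capg-1 60.0 ± 7.64 and dpy-26 57.8 ± 7.45 in F01D4.5(baf20), against 54.6 ± 11.7 and 53.6 ± 10.2 in N2 (SD, n = 5 each). These 3 did not differ from each other beyond their spread. dpy-28 followed with 30.9 ± 3.39 in F01D4.5(baf20) and 25.1 ± 5.20 in N2. dpy-27, at 15.4 ± 1.85 in F01D4.5(baf20) and 15.8 ± 0.622 in N2, and dpy-21, at 13.6 ± 1.64 in F01D4.5(baf20) and 13.5 ± 3.18 in N2, overlapped each other. smc-4, which takes the place of dpy-27 in the mitotic condensins, had 91.4 ± 15.3 CPM per kilobase in F01D4.5(baf20) and 85.7 ± 20.5 in N2, well above dpy-27. Of the recruitment genes, sdc-3 had 9.04 ± 0.648 and sdc-1 7.00 ± 0.986 CPM per kilobase in F01D4.5(baf20), whereas in N2 sdc-3 had 5.67 ± 0.670 and sdc-1 6.16 ± 1.19. The order of sdc-3 and sdc-1 thus turned between the strains by their means, though their ranges over libraries overlapped in each strain (8.07 to 9.52 for sdc-3 and 6.07 to 8.65 for sdc-1 in F01D4.5(baf20), 4.76 to 6.41 for sdc-3 and 4.47 to 7.504 for sdc-1 in N2). Within single libraries sdc-3 lay above sdc-1 in every F01D4.5(baf20) library, while the N2 libraries went both ways. sdc-2 was lower, at 2.62 ± 0.900 in F01D4.5(baf20) and 2.74 ± 0.302 in N2. dpy-30 had 1.003 ± 0.499 in F01D4.5(baf20), below sdc-2 in every library, and 2.40 ± 0.535 in N2, where it overlapped sdc-2 (1.86 to 3.17 for dpy-30 and 2.45 to 3.21 for sdc-2). dpy-30 and dpy-21 are counted in several rows, so their levels per length may leave out shared reads.

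The complex genes did not vary together as a whole. On the scale of log2 CPM centred on each gene's mean over the 10 libraries, the shared condensin subunits were most alike, with a root mean square difference of 0.079 between dpy-26 and capg-1 and 0.086 between mix-1 and capg-1. sdc-1 ran close to them, at 0.095 from dpy-26 and 0.096 from capg-1. sdc-3 and dpy-30 were the least alike, at 1.03. sdc-3 was chosen with its higher level in F01D4.5(baf20) known, and dpy-30 passed the filter through N2 alone. This pair was thus bound to lie far apart. Among the remaining genes the largest difference was 0.522, between sdc-2 and mix-1. The span between the highest and the lowest library was 0.44 for dpy-27, 1.00 for sdc-3, 1.17 for sdc-2 and 2.72 for dpy-30, and 0.84 to 1.06 for the other 6. The lowest dpy-30 library, F01D4.5(baf20) replicate 5, held 1 count.

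In the libraries numbered 5, mix-1, dpy-26, dpy-28, capg-1 and sdc-1 lay below replicates 1 to 4 of their strain, at 0.694 to 0.850 times their mean in F01D4.5(baf20) and 0.619 to 0.679 times in N2, while sdc-2 lay above at 1.85 times in F01D4.5(baf20) and 1.22 times in N2. sdc-3 lay within the range of replicates 1 to 4 in both strains, at 0.948 times their mean in F01D4.5(baf20) and 0.902 times in N2. Oocyte and eggshell markers were low in these libraries too, with a mean log2 CPM of 8.62 in F01D4.5(baf20) replicate 5 and 8.26 in N2 replicate 5, against 9.14 to 9.62 in F01D4.5(baf20) replicates 1 to 4 and 9.03 to 9.44 in N2 replicates 1 to 4; their part in the levels of the complex genes was not tested. A single library per strain gives no test.

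**Figure D4:**
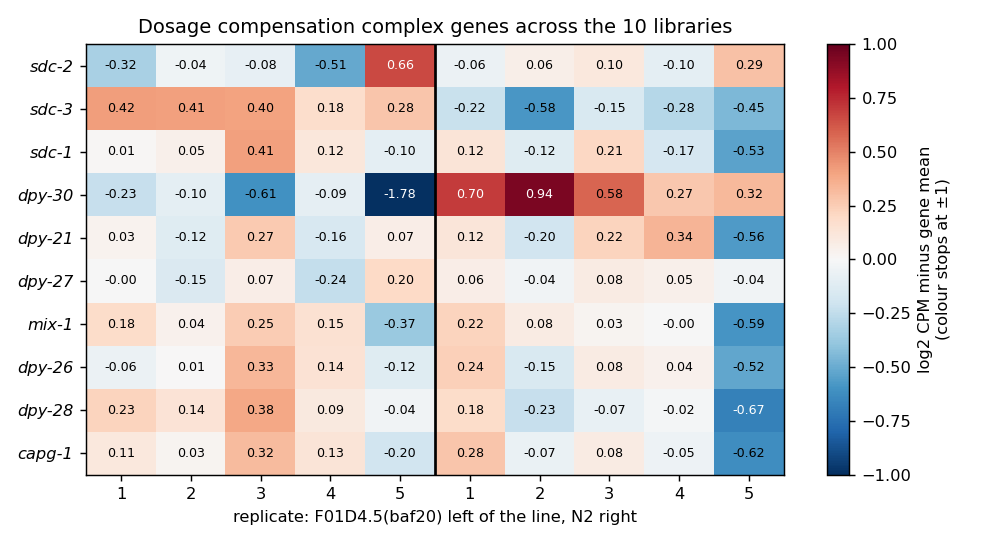
Log2 CPM of each complex gene minus its mean over the 10 libraries (colour and printed values), with genes as rows and libraries as columns, F01D4.5(baf20) replicates left of the line and N2 replicates right. The sdc-3 row is positive in all 5 F01D4.5(baf20) libraries, at 0.18 to 0.42, and negative in all 5 N2 libraries, at −0.58 to −0.15, while mix-1, dpy-26, dpy-28 and capg-1 each have the lowest value of a strain in its column numbered 5.

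By the same root mean square measure over the 10 libraries, among the 9354 other tested genes whose mean log2 CPM reached 2, the 5 genes most like sdc-3 were K07F5.12 (0.147), C34B7.1 (0.167), kin-35 (0.168), set-10 (0.175) and Y47G7B.2 (0.180), where the median gene lay at 0.427. None is on chromosome V with sdc-3. K07F5.12 had 44.6 ± 5.36 CPM in F01D4.5(baf20) and 27.4 ± 1.57 CPM in N2 (SD, n = 5 each). set-10, a gene of a SET-domain protein, had 20.7 ± 1.73 CPM in F01D4.5(baf20) and 11.4 ± 0.674 CPM in N2. kin-35 had 26.3 ± 2.97 CPM in F01D4.5(baf20) and 16.9 ± 1.40 CPM in N2. Since likeness was measured over both strains, these genes were bound to show a strain difference of the same sign.

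Genes on X, on which the complex acts, were compared with autosomal genes as a measure that did not enter the choice of the complex genes, which were left out of it. Of 1698 tested X genes, 33.6% had a positive log2 fold change, against 56.3% of 10503 autosomal genes, with medians of −0.091 on X and 0.034 on the autosomes. The shares on single autosomes ran from 50.04% on chromosome V to 62.6% on chromosome I. No X gene passed the test in edgeR, and 73 (4.30%) had an unadjusted p under 0.05, against 8 called and 629 (5.99%) at an unadjusted p under 0.05 on the autosomes.

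Library by library, X expression relative to autosomes was lower in F01D4.5(baf20) by its mean in all 16 alternatives, but the test depended on the libraries numbered 5. The median centred log2 CPM of X genes minus that of autosomal genes was −0.14, −0.14, −0.11, −0.16 and 0.30 in F01D4.5(baf20) replicates 1 to 5, against −0.11, 0.047, 0.017, 0.052 and 0.33 in N2 replicates 1 to 5. Replicate 5 of each strain was the highest. Means were −0.052 ± 0.196 in F01D4.5(baf20) and 0.067 ± 0.157 in N2 (SD, n = 5 each), a difference of −0.12 that did not pass an exact permutation test (two-sided, p = 0.365, smallest possible p = 0.00794). In replicates 1 to 4 the strains did not overlap, with −0.16 to −0.11 in F01D4.5(baf20) and −0.105 to 0.052 in N2, a difference of −0.15 (exact permutation test, p = 0.0286, the smallest possible). Leaving out F01D4.5(baf20) replicate 5 alone gave −0.21 (exact permutation test, p = 0.0159), and leaving out N2 replicate 5 alone gave −0.055 (exact permutation test, p = 0.651). The libraries left out were the highest of their strain in the measure tested, so the values without them are a description.

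The libraries numbered 5, highest in the X measure, also had the highest moulting and the lowest oocyte and germline marker levels of their strain. By mean log2 CPM, sperm markers in them lay within the range of replicates 1 to 4, though their summed levels were the lowest of their strain. As background, the X chromosome is largely silent in the germ line. The mean log2 CPM of the 10 tested moulting and cuticle markers, of 14 listed, was 2.11 to 3.29 in F01D4.5(baf20) replicates 1 to 4 and 5.15 in replicate 5, against 2.64 to 4.29 in N2 replicates 1 to 4 and 6.11 in replicate 5. The summed level of all 14 was 54.1 to 575.1 CPM in F01D4.5(baf20) and 68.8 to 1199 CPM in N2. The 16 listed oocyte and eggshell markers, 12 of them tested, summed to 5618 to 10949 CPM in F01D4.5(baf20) and 4237 to 9514 CPM in N2. The 20 listed germline markers, 18 of them tested, summed to 2493 to 3588 CPM in F01D4.5(baf20) and 2010 to 3543 CPM in N2. All 13 listed sperm markers, 12 of them tested, summed to 442.2 to 663.5 CPM in F01D4.5(baf20) and 481.9 to 607.2 CPM in N2. At 0 counts in all libraries were 1 germline, 3 oocyte and eggshell, 1 sperm, 2 moulting and 1 male marker. All but the male marker are counted in several rows, 2 to 8 each. Reads shared by rows may be missing, so 0 counts do not show that their mRNA was absent. With the germline, oocyte and sperm marker genes themselves left out, the X difference was −0.119 (exact permutation test, p = 0.365). That removes the marker genes alone, and the part of tissue makeup in the X values was not tested.

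**Figure D5:**
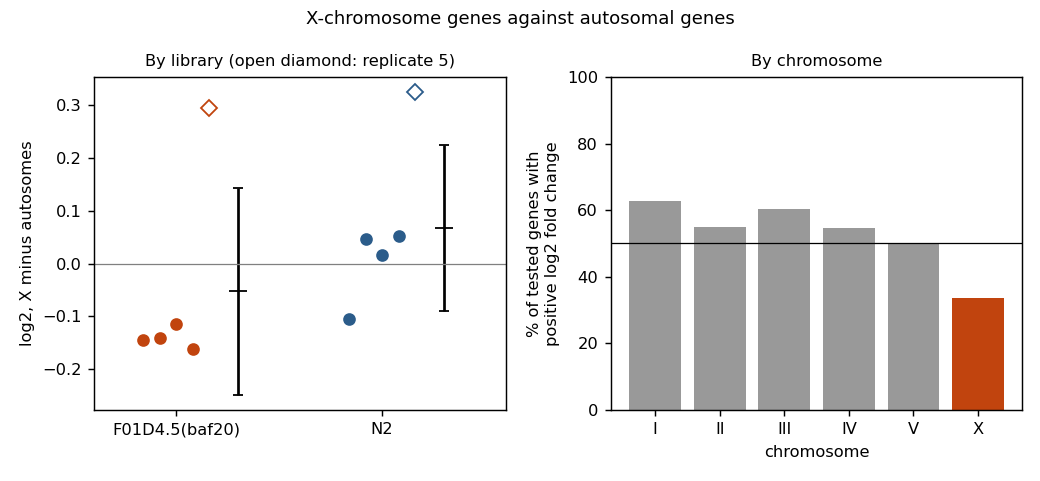
Left, median centred log2 CPM of X genes minus that of autosomal genes in each F01D4.5(baf20) library (red) and each N2 library (blue), with open diamonds for replicate 5 and bars for mean ± SD; right, share of tested genes per chromosome with a positive log2 fold change, F01D4.5(baf20) over N2 (axis from 0, line at 50%). The libraries numbered 5 are the highest of each strain, at 0.30 in F01D4.5(baf20) and 0.33 in N2, and X has the lowest share, 33.6%.

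Upstream and downstream of the complex, genes of sex determination gave no call. her-1, the male-promoting gene that the SDC proteins repress, held 3 counts over the 5 F01D4.5(baf20) libraries and 3 over the 5 N2 libraries. That is no more than the limit that a count of 0 allows in a single library, so no difference was detectable at these counts. The gene is counted in 2 rows, and reads shared by them may be missing. xol-1, the X-linked switch that keeps the complex off in males, held 41 counts in F01D4.5(baf20) and 25 in N2, in 3 rows, and was below the filter. Of 6 genes listed for the X signal 4 were tested, 2 positive and 2 negative. Their median log2 fold change was −0.023, beside 0.018 for all genes tested. That list mixes genes on X, xol-1 and fox-1 among them, with sea-1 and sea-2 on chromosome II, so its median stands for no single class. fox-1 had −0.071 (SE 0.178), sea-1 0.078 (SE 0.376) and sea-2 −0.19 (SE 0.424). Of 12 sex-determination genes 9 were tested, with a median of 0.11 and 0 called by edgeR (0.0649% of all genes tested), and 1 at an unadjusted p under 0.05 (5.75% of all genes tested). That gene was fog-3, which directs germ cells to the sperm fate, with 5.07 ± 0.732 CPM in F01D4.5(baf20) and 2.99 ± 0.867 CPM in N2, where edgeR gave a log2 fold change of 0.75 (SE 0.228) and an adjusted p of 0.659. Of the 12 tested sperm markers 10 were positive, beside 53.2% of all genes tested, with a median of 0.235 and 3 at an unadjusted p under 0.05. Their part in the fog-3 value was not tested. tra-3 and fem-1 had 0.37 (SE 0.175) and 0.11 (SE 0.073). The 2 tested male markers, of 8 listed, lay on opposite sides, and the list summed to 2.87 to 5.48 CPM in F01D4.5(baf20) and 2.70 to 5.19 CPM in N2.

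Other complexes built around SMC proteins lay slightly on the positive side without a call by edgeR. The 4 genes of the mitotic condensins not shared with the dosage compensation complex were all positive, with a median log2 fold change of 0.16. Among them kle-2 had 161.1 ± 26.4 CPM in F01D4.5(baf20) and 145.1 ± 30.9 CPM in N2, and capg-2 had a log2 fold change of 0.17 (SE 0.210). hcp-6, counted in 2 rows, had 71 counts in F01D4.5(baf20) and 41 in N2 in all. Of 11 genes of cohesin, its loaders and the SMC-5/SMC-6 complex, 10 were tested and all were positive, with a median of 0.14 and values of 0.36 (SE 0.233) for smc-3, 0.22 (SE 0.177) for scc-2 and 0.18 (SE 0.149) for scc-3. None of these 14 tested genes had an unadjusted p under 0.05, and of all genes tested 53.2% were positive. In replicates 1 to 4 the 4 condensin genes kept higher means in F01D4.5(baf20), with smc-4 at 480.7 CPM against 465.4 CPM in N2. The cohesin list was not fitted without the libraries numbered 5, and its signs may rest on them. For coh-1, replicate 5 was the highest F01D4.5(baf20) library, at 33.7 CPM, and the lowest N2 library, at 25.2 CPM. The moulting markers were negative in 10 of 10 cases (median −1.16) and the oocyte markers positive in 11 of 12 (median 0.22) between the same libraries, and their part was not tested.

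Chromatin regulators linked to the complex were also without a call by edgeR. For the counts below, 53.2% of all genes tested were positive, 5.75% had an unadjusted p under 0.05 and 0.0649% were called. Between the same libraries 14 of 18 germline markers (median 0.11) and 11 of 12 oocyte markers (median 0.22) were positive, and their part in these values was not tested. None of the lists below was fitted without the libraries numbered 5, and the part of those libraries in the signs was not tested. Among the COMPASS genes, whose products bind DPY-30, 7 of 8 were tested and all were positive, with a median of 0.13 and 1 at an unadjusted p under 0.05. It was set-16, the gene of an MLL-type methyltransferase, with 162.4 ± 25.2 CPM in F01D4.5(baf20) and 128.5 ± 15.4 CPM in N2, a log2 fold change of 0.34 with an adjusted p of 0.793 by edgeR (SE 0.131). rbbp-5 had 0.13 (SE 0.141) and hcf-1 0.16 (SE 0.170), while cfp-1, split over 13 rows, is listed at 0 throughout. Of 11 genes for histone H4 methylation and X chromatin 10 were tested, 7 positive and 3 negative, with a median of 0.12 and 1, sir-2.1, at an unadjusted p under 0.05. set-4, the methyltransferase whose mark DPY-21 partly removes, had 99.8 ± 13.6 CPM in F01D4.5(baf20) and 91.8 ± 9.89 CPM in N2, jmjd-1.1 had a log2 fold change of 0.15 (SE 0.144), and sir-2.1 had −0.90 (SE 0.393) on 51 counts in F01D4.5(baf20) and 98 in N2 over 4 rows. Of 6 genes that silence X in the germ line 4 were tested, all positive, with a median of 0.17 and 1, mes-3, at an unadjusted p under 0.05. The named ones were mes-3 at 43.1 ± 5.01 CPM in F01D4.5(baf20) and 35.5 ± 3.63 CPM in N2 (edgeR log2 fold change 0.28 and adjusted p = 0.836), mes-6 at 0.30 (SE 0.153) and mes-2 at 0.050 (SE 0.152).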

How the data were processed

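Messenger RNA libraries (Illumina TruSeq Stranded mRNA, per the labels' protocols) of 5 F01D4.5(baf20) and 5 N2 samples were analysed. The authors deposited raw counts per transcript or sequence name, 57827 rows per library, not normalized. Per the submitters' processing notes, the tools were CASAVA, HISAT2, HTSeq and DESeq2 and the builds ce10 and ce11, with no role for each; versions, strand setting and the treatment of ambiguous reads are not given in the sources used here. Nothing in them says that the samples came from separate cultures beyond the term biological replicate, so p-values measure the spread between these samples.

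Row names were matched to Ensembl release 115 genes on WBcel235 (56921 rows, 99.76% of counts) and summed per gene. The strain comparison used edgeR 4.0.16 (R 4.3.3): filterByExpr (minimum count 10, minimum total 15), TMM, robust quasi-likelihood fit with strain as the only term, two-sided, Benjamini-Hochberg adjustment over 12335 genes. CPM are per 1000000 TMM-scaled counts of tested genes; log2 CPM use a prior count of 2. SE is the log2 fold change over the root of F. Alternatives included DESeq2 1.42.0. The procedure was tested on simulated counts. X and autosomal genes were compared per library by exact permutation of the strains. Genes named beside the complex were F01D4.5, up to 3 per pathway list with the smallest p, the 5 nearest to sdc-3 in profile, and neighbours. Members and lists were chosen with earlier results of these data known.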

Additional observations from a re-analysis of the deposited data

Results flagged for a closer look

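The difference between X and autosomal genes in F01D4.5(baf20) replicate 5, 0.296 on the log2 scale, lay far from the other 4 libraries of its strain, at −0.161 to −0.114. N2 replicate 5, at 0.325 where the other N2 libraries had −0.105 to 0.052, was also the highest of its strain but did not stand out by the same criterion, Dixon's critical value for the gap to the nearest library. Of 26 groups of 5 values looked at (each complex gene and F01D4.5 in each strain, and 2 derived values), 1 stood out, and chance alone gives about 1 in 20.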

How the results depend on the processing

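Over all genes edgeR called 8; the count was 32 with DESeq2, 5 without a filter on low counts, 18 without both libraries numbered 5, 2 with F01D4.5(baf20) replicates 1 and 2 summed, and 2 to 13 with any 1 library left out (13 without F01D4.5(baf20) replicate 5, 4 without N2 replicate 5, 2 or 3 without any other). Other fits gave 6 to 9. With the replicate number as a block it was 6, and sdc-3 had a log2 fold change of 0.68 (adjusted p = 0.0722); same-numbered libraries had correlations of −0.131 to 0.822, only those numbered 5 correlated best with their own number, and the numbers were not taken as pairs. The X difference was −0.207 to −0.055 with 1 library left out. It was −0.145 without both libraries numbered 5, the highest of each strain in this measure (exact permutation test, p = 0.0286, the smallest possible). As replicate blocks it was −0.119, with F01D4.5(baf20) lower in 5 of 5 numbers (exact sign flips, p = 0.0625, the smallest possible). The shift of sdc-3 was 1.025 against recruitment partners, 0.546 against condensin subunits and 0.653 to 0.775 with 1 library left out; dropping dpy-30 (0.581 over all partners, 0.638 over sdc-1 and sdc-2) was chosen after seeing the data. Signs turned for dpy-21 with DESeq2 (−0.007), its size factors (−0.005), upper-quartile factors (−0.004), no filter (−0.005), a filter of 5 CPM (−0.015), without both libraries numbered 5 (−0.124), in rows as deposited (−0.013) and with 1 library left out (−0.111 to 0.097), and with 1 library left out for sdc-2 (−0.295 to 0.017) and mix-1 (−0.017 to 0.185). dpy-30 did not reach the filter of 5 CPM. The causes were not tested. Low counts limit dpy-30, at 1 to 18 per library, and her-1, at 3 per strain. Both are counted in several rows, and the part of depth and of row structure was not tested.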
